A study of Drosophila melanogaster with 3 samples.

Results

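The glycolytic enzymes of Drosophila melanogaster are described here by where the protein CG10431 gave ChIP-seq peaks at their genes. The 10 genes were taken by symbol, in the order of the pathway: Pgi, Pfk, Ald1, Tpi, Gapdh1, Gapdh2, Pgk, Pglym78, Eno and PyK. They are 10 of 18358 annotated genes, of which 13986 are protein-coding. The sample material was whole embryos of mixed sex, collected from 0 to 12 h of development, of 1 transgenic line (CG10431-GFP) that stably expresses CG10431 with GFP fused to its C terminus. Sonicated chromatin of 200 to 800 bp was assayed by TF ChIP-seq in 3 biological replicates, numbered 1, 2 and 3, and the antibody field of the labels names CG10431. There is 1 group, so no condition or genotype could be compared, and the labels do not say which promoter drives the fusion. The free-text description calls the samples an input control, while assay, antibody and notes describe a ChIP, and they were read as ChIP samples.

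Glycolysis splits glucose to pyruvate and yields ATP and NADH without oxygen. Pgi and Pfk prepare and commit the hexose phosphate, Ald1 cuts it into triose phosphates, and Tpi interconverts these. The GAPDH, Pgk, Pglym78, Eno and PyK enzymes carry triose phosphate to pyruvate. In Drosophila embryos the genes of the pathway are switched on together in the middle of embryogenesis, a change that requires the orphan nuclear receptor ERR. Gapdh1 and Gapdh2 encode the same enzyme activity from separate loci, which makes them a natural pair to set side by side.

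Sequences under a peak of each of 3 genes are shown first, because Gapdh2 and Eno had the strongest peaks of the pathway and Pgk the most peaks. For Pgk the stretch is that of its second strongest peak, whose summit is nearest to a start of another gene, Bacc, because the summit of the strongest lies in an untranslated exon, which is not printed. Each is genomic DNA of dm6 from the RefSeq copy of the assembly, written 5′ to 3′ on the strand of its gene and reaching 100 bp to either side of a summit. For Eno the window was shortened to its 144 intronic bases. Capitals mark each match to TATAAA on either strand, the only searched motif found in these 3 stretches.
Gapdh2, upstream of the 5′ start, X:15867880-15868080, plus strand: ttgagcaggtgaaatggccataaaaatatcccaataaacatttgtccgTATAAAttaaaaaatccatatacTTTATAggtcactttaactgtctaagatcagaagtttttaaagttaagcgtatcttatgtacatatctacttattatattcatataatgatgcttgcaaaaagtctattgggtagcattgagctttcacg
Pgk, intron, 2L:2751877-2752077, minus strand: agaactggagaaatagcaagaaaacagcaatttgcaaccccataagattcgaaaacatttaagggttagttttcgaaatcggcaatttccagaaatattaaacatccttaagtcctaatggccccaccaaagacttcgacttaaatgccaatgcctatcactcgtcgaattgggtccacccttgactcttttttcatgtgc
Eno, intron upstream of an internal start, 2L:1727881-1728024, minus strand, 144 bp: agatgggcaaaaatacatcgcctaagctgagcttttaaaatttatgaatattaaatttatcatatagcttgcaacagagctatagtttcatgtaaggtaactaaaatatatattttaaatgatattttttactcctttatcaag
The Gapdh2 stretch was AT-rich, with 29.9% G and C. The full window at the Eno summit had 30.8%, and the Pgk window 39.8%. The median over the windows of all reproducible peaks was 37.8%, so the Gapdh2 and Eno windows were poorer in G and C than most and the Pgk window was near the middle.

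The authors' 3314 reproducible peaks are those that passed an irreproducible discovery rate (IDR) analysis of the 3 replicates. They were tested to be the 3314 strongest of 30000 entries called on the pooled replicates. Each replicate has its own list of 30000 entries, which hold background as well as peaks. The signal of an entry is the caller's own value on a scale that the sources used here do not give. Signals were therefore compared only within 1 list, and ranks (1 is the strongest) across lists of equal length. The reads behind the lists are unknown. In whole embryos, fewer cells with CG10431 at a site and weaker binding in each cell cannot be told apart.

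Reproducible peaks were found at 3 of the 10 enzyme genes, Gapdh2, Pgk and Eno, counting summits within 1 kb of any transcript start. Of all protein-coding genes, 17.3% had such a summit. Every enzyme gene has at least 2 annotated starts, and among the protein-coding genes with at least 2 starts the share was 30.3%, close to the 30% of the enzymes. A summit of any pooled entry, background included, lay within 1 kb of a start at 7 of the 10 genes, against 52.5% of protein-coding genes, and 3 of these 7 were IDR peaks, against 32.9% of the genes with a pooled entry. The gene bodies of the same 3 enzymes held an IDR summit, against 10.1% of protein-coding genes. In number, then, the pathway was near the background of genes with several starts. Its peaks were uneven in strength: among the 7347 protein-coding genes with a pooled entry in reach, ordered by their strongest one, Eno took place 70 and Gapdh2 place 86, Pgk place 793, and Pglym78, Ald1, PyK and Pfk places 2993, 3037, 4144 and 5324. The median of the strongest signal was 162.8 over the 7 enzyme genes and 136.9 over the 7347.

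**Figure D1:**
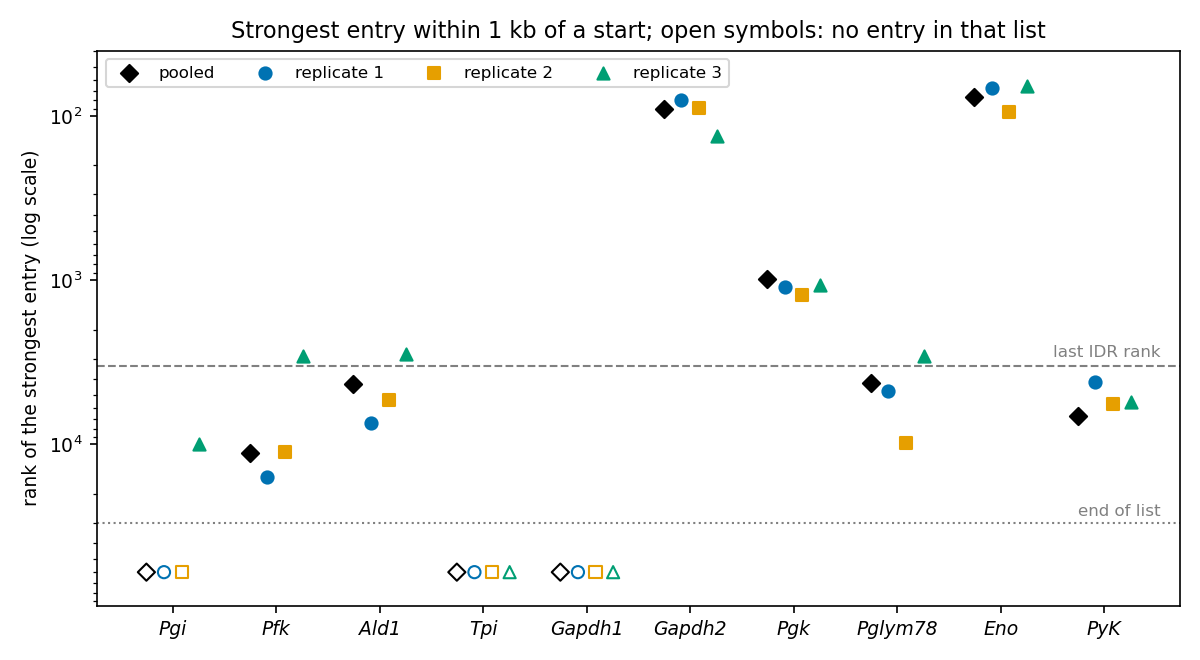
Rank of the strongest entry within 1 kb of a start of each glycolytic gene (vertical log axis, strongest at the top) in the pooled list and in replicates 1, 2 and 3; the dashed line is the last IDR rank, 3314, the dotted line the end of the lists, and open symbols mark genes with no entry in that list. Eno and Gapdh2 lie between ranks 66 and 133 in all 4 lists and Pgk between 981 and 1228, while the strongest entries of Pfk, Ald1 and Pglym78 pass the dashed line in replicate 3 alone.

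In the plot of ranks by replicate, Eno, Gapdh2 and Pgk stayed above the limit in every list. Pfk, Ald1 and Pglym78 passed it in replicate 3 alone, and the other genes in no list. The strongest PyK entries kept to ranks 4156, 5658 and 5505 in replicates 1, 2 and 3. Taking the 3314 strongest entries of each replicate in place of the IDR list, replicates 1 and 2 each had an entry at Gapdh2, Pgk and Eno, 3 of 10 genes, against 17.0% and 17.5% of protein-coding genes. Replicate 3 had entries of that strength at 6 genes, against 17.8%, since Pfk, Ald1 and Pglym78 also reached them there. The number was 4 ± 1.73 genes (SD, n = 3). The 3 further genes of replicate 3 thus set the spread, while its share over all protein-coding genes was close to that of the other replicates. Shares over genes with at least 2 starts, 30.3% for IDR summits, were not taken for single replicates.

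Eno encodes enolase, which turns phosphoglycerate into phosphoenolpyruvate, and it had the strongest peak of the pathway. The gene (FBgn0000579, 2L:1724768-1729636 in dm6, minus strand) has 3 starts, and its peak, 2L:1727707-1728139, lay in an intron. The pooled signal was 1291, rank 77. In replicates 1, 2 and 3 the signal was 447.1, 466.1 and 391.0, at ranks 67, 94 and 66. The mean rank was 75.7 ± 15.9 (SD, n = 3), so every replicate placed this site among its 100 strongest. The summit was 207 bp upstream of the most internal start and 1712 bp inside the gene as counted from its 5′ end, and its position varied by 22.5 bp (SD, n = 3). At the 5′ start of Eno itself the nearest pooled entry, 96 bp upstream, had a signal of 121.5 and rank 6826, below the IDR limit of 186.7. Another Eno entry, signal 136.6 and rank 5636, lay 16 bp from the start of Rrp40, a gene that overlaps Eno on the other strand and encodes an exosome subunit. The strong Eno peak was thus nearest to an internal Eno start, 539 bp downstream of the next Eno start and 808 bp from that of Rrp40.

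Gapdh2 encodes 1 of the 2 forms of glyceraldehyde-3-phosphate dehydrogenase, the enzyme of the NADH-forming step. The gene (FBgn0001092, X:15868145-15869661, plus strand) has 2 starts 66 bp apart, and its main peak, X:15867808-15868127, lay in the intergenic sequence printed above. The pooled signal was 1160, rank 90. Replicates 1, 2 and 3 gave signals of 409.0, 478.7 and 284.3 at ranks 80, 89 and 133, a mean rank of 100.7 ± 28.4 (SD, n = 3). Its summit was 165 bp upstream of the 5′ start and varied by 28.1 bp (SD, n = 3). A second, weaker IDR entry at Gapdh2 (X:15867974-15868397, signal 234.2, rank 2257) overlapped the first, with its summit in the 5′ exon, 25 bp upstream of the second start. Within 100 bp of that second summit, replicate 2 had an entry of rank 1058 and replicate 3 one of rank 3765, and replicate 1 had none. The main Gapdh2 peak therefore recurred in all 3 replicates, and the second in 2 of them. A stronger peak is close by: an intron of the neighbouring gene CG16952 holds the peak of rank 8 in the pooled list, signal 4346, 3181 bp downstream of the 5′ end of Gapdh2.

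Gapdh1, the other GAPDH gene (FBgn0001091, 2R:7791901-7793380, minus strand), had no entry within 1 kb of its 2 starts or in its body in the pooled list or in any replicate. The pooled summit nearest to a start was 3486 bp from it and past the 3′ end of the gene. It had a signal of 50.2 and rank 26997, close to the end of the list. The nearest IDR summit was 19011 bp from a start. The closest entry of any replicate was 1542 bp from a start, in replicate 3, with rank 8714. Its summit, 2R:7791688, lay just past the 3′ end of Gapdh1. The pair thus differed in every replicate, with Gapdh2 among the 133 strongest entries of each and Gapdh1 in none. How reads that match both copies were placed is not stated in those sources.

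Pgk encodes phosphoglycerate kinase, which forms ATP. The gene (FBgn0250906, 2L:2746880-2753068, minus strand) has 5 starts and 10 pooled entries within 1 kb of them, 3 of which were IDR peaks. The first, 2L:2748698-2748874, had a signal of 367.8 and rank 981, with its summit in an untranslated exon 245 bp upstream of the most internal start. Replicates 1, 2 and 3 placed this Pgk site at ranks 1107, 1228 and 1068, with signals of 110.5, 137.4 and 109.7. The mean rank was 1134 ± 83.4 (SD, n = 3), the narrowest relative spread of the 3 Pgk peaks. The second Pgk peak, 2L:2751765-2752188, is the intronic sequence printed above and had a signal of 360.4 and rank 1020. Its replicate ranks were 997, 1373 and 1319, a mean of 1230 ± 203 (SD, n = 3). This summit was 988 bp upstream of the nearest Pgk start, barely inside the 1 kb limit, and 468 bp from a start of Bacc, a gene that overlaps Pgk on the opposite strand. The third Pgk peak, 2L:2752560-2752983, with a signal of 201.2 and rank 2920, was 296 bp downstream of the 5′ start of Pgk and 28 bp from a Bacc start. It was the least steady, at ranks 4007, 2077 and 3026 in replicates 1, 2 and 3 (mean 3037 ± 965, SD, n = 3). The summits of these replicate entries were spread over 187 bp, so they need not be 1 site. Within 100 bp of the pooled summit, replicates 2 and 3 had an entry and replicate 1 had none. The nearest start belonged to Pgk at 1 of the 3 pooled IDR summits and to Bacc at the other 2. The strongest Pgk entries below the IDR limit had signals of 182.2 and 175.9, at ranks 3461 and 3682. CG9961, a paralog of Pgk that lies beside it, had a single weak pooled entry, signal 63.3 and rank 19360, 80 bp upstream of its start.

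**Figure D2:**
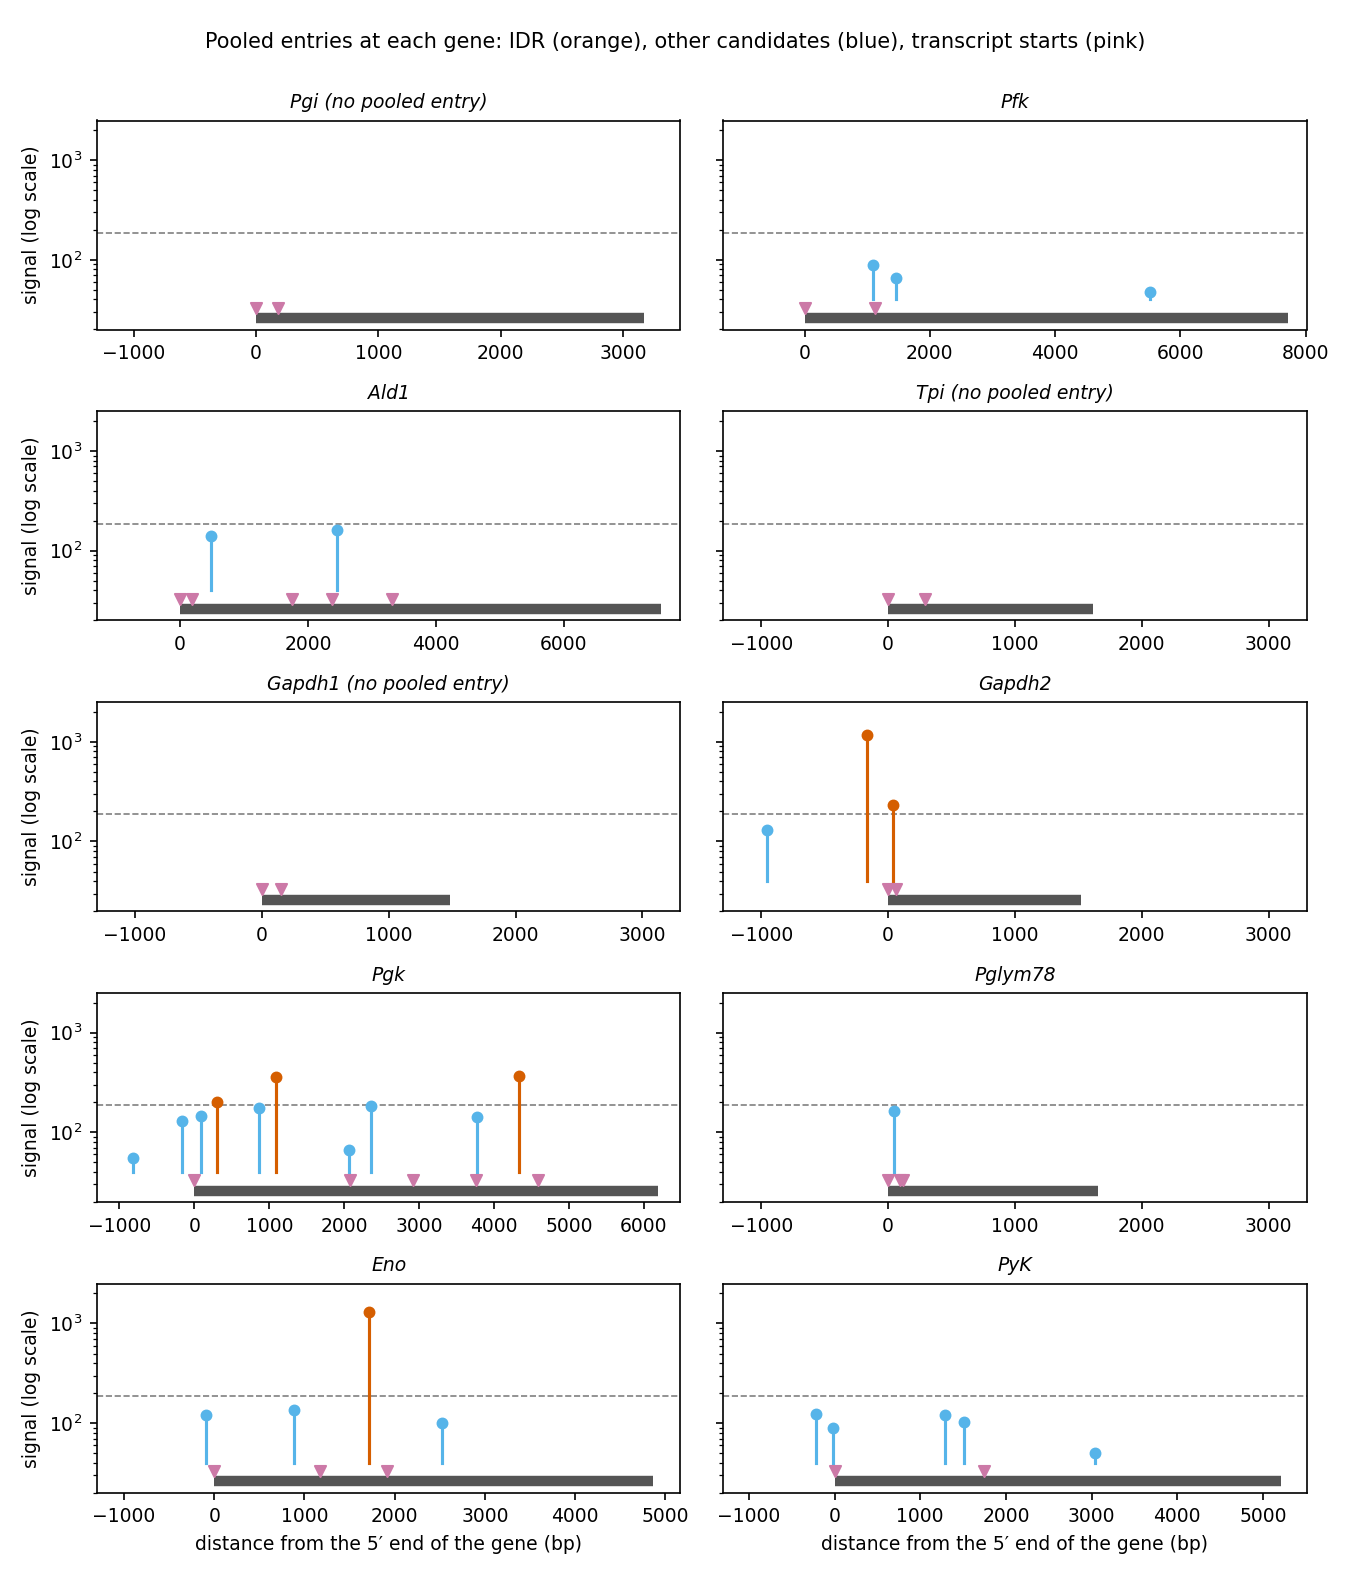
Pooled entries at the 10 glycolytic genes, plotted by distance of the summit from the 5′ end of the gene in the direction of transcription (bp) and by signal (vertical log axis); IDR peaks are orange, other pooled entries blue, transcript starts pink triangles, the gene a dark bar and the lowest IDR signal, 186.7, a dashed line. The highest points are the Eno peak inside the gene and the Gapdh2 peak just before it, Pgk has entries along most of its length, and Pgi, Tpi and Gapdh1 have none.

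The maps of the 10 genes show the same contrast in place: 1 tall peak each at Eno and Gapdh2, a spread of lower ones at Pgk, and entries below the dashed line at 4 other genes. Pglym78 encodes phosphoglycerate mutase. The gene (FBgn0014869, 3R:29148248-29149901, plus strand) had 1 pooled entry, signal 162.8 and rank 4218, with its summit 47 bp downstream of the 5′ start. CG11882, transcribed the other way, starts 123 bp from the same summit. The Pglym78 entry ranked 4747, 9791 and 2883 in replicates 1, 2 and 3, a mean of 5807 ± 3574 (SD, n = 3), so its place varied far more between replicates than that of the first Pgk peak.

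Ald1 encodes the aldolase that cleaves fructose bisphosphate. The gene (FBgn0000064, 3R:26254069-26261591, minus strand) has 5 starts and 2 pooled entries. The stronger one, signal 161.7 and rank 4271, lay 81 bp downstream of an internal start, in an untranslated exon, and ranked 13406, 5328 and 4043 in replicates 1, 2 and 3 (mean 7592 ± 5076, SD, n = 3). The weaker Ald1 entry, signal 139.4 and rank 5471, lay 302 bp downstream of another start, in an exon of the antisense RNA gene asRNA:CR44321. Replicate entries within 250 bp of that summit ranked 7428, 7482 and 2816. The summits of these replicate entries were spread over 396 bp, so they need not be 1 site: within 100 bp, replicates 1 and 2 had entries at ranks 7428 and 15598 and replicate 3 had none. Neither Ald1 site reached the IDR list.

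PyK encodes pyruvate kinase, the last step of the pathway. The gene (FBgn0267385, 3R:22367536-22372746, plus strand) had 4 pooled entries within 1 kb of its 2 starts, with signals of 122.3, 119.7, 103.3 and 88.6, and 1 more in its body at 49.6. The strongest ranked 6759, and its summit, 216 bp upstream of PyK, lay in an intron of the divergent gene Polr3F, which encodes a subunit of RNA polymerase III. A start of Polr3F, 53 bp away, was nearer to this summit than that of PyK. Entries within 250 bp ranked 6398, 6804 and 5505 in replicates 1, 2 and 3 (mean 6236 ± 665, SD, n = 3). These PyK ranks were close together, but the summits behind them were spread over 209 bp, so they need not be 1 site.

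Pfk encodes phosphofructokinase, the committing step. The gene (FBgn0003071, 2R:10109740-10117457, plus strand) had 2 pooled entries within 1 kb of a start and 1 more in its body. The strongest, signal 88.6 and rank 11291, lay 34 bp upstream of its second start and was the lowest of the strongest entries of the 7 genes with one. Only replicate 3 had an entry within 250 bp of it, with a signal of 68.6 and rank 2895. The other Pfk entry in reach, signal 66.1 and rank 18086, lay 322 bp downstream of the same start, with entries within 250 bp at rank 11126 in replicate 2 and 14888 in replicate 3. The strongest pooled Pfk entry was thus matched in 1 replicate, the weaker one in 2, and neither in replicate 1. A much stronger peak, rank 3 in the pooled list with a signal of 9372, is in an intron of 14-3-3zeta, 7847 bp upstream of the 5′ end of Pfk.

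Pgi and Tpi, which encode phosphoglucose isomerase and triosephosphate isomerase, had no pooled entry within 1 kb of a start or in the gene. The nearest start of the Pgi gene (FBgn0003074, 2R:8910900-8914069, minus strand) lay 33491 bp from the nearest pooled summit and 37218 bp from the nearest IDR summit. Replicate 3 alone listed an entry 641 bp upstream of Pgi, with a signal of 35.7 and rank 9900. The nearest start of the Tpi gene (FBgn0086355, 3R:30132981-30134599, minus strand) lay 19680 bp from the nearest pooled summit and 28014 bp from the nearest IDR summit. No replicate listed an entry within 1 kb of a Tpi start or in the gene. Of the 10 genes, those without a pooled entry were therefore both isomerases and Gapdh1.

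In position, the strongest IDR summit of Gapdh2, Pgk and Eno lay upstream of its nearest own start in 3 of 3 genes, at 165, 245 and 207 bp. Only that of Gapdh2 lay outside its gene. The Pgk and Eno summits were inside theirs, 581 and 539 bp downstream of another start of the same gene. Over all 2419 protein-coding genes with an IDR summit in reach, 77.3% of the strongest summits were upstream, and the median lay at -124 bp from the start. Between 150 and 300 bp upstream lay 23.4% of the strongest summits of all genes. These bounds were chosen after the enzyme values were seen and enclose all 3 of them, so the enzyme count there was fixed by the choice.

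**Figure D3:**
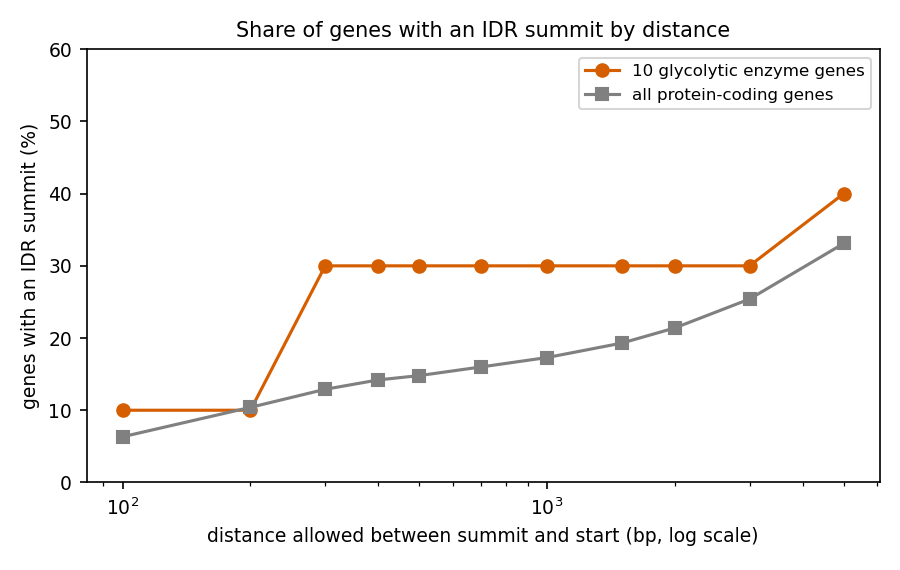
Share of genes with an IDR summit within a given distance of any start (horizontal log axis, bp; vertical axis in percent), for the 10 glycolytic genes (orange) and all protein-coding genes (grey). The enzyme genes go from 10% at 200 bp to 30% at 300 bp and stay there up to 3000 bp, while the share over all genes goes from 10.4% to 25.4%.

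The curve of shares by distance shows that the count of 3 enzyme genes did not depend on the 1 kb limit: it was 3 from 300 bp to 3000 bp, and 1 at 100 bp and 200 bp. At 200 bp the share was near that of all genes, 10.4%, and at 300 bp all genes stood at 12.9%. At 5000 bp the enzyme count was 4, against 33.1% of all genes. The share over genes with at least 2 starts was taken at 1 kb only, where it was 30.3%.

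Short sequence motifs were searched on both strands in windows of 100 bp to either side of the 6 IDR summits of the 3 genes. TATAAA had 2 matches at the main Gapdh2 summit, 49 bp and 26 bp upstream of it and on opposite strands, and 32.5% of all IDR windows held one. ACGTG, the core of the hypoxia response element, which also lies within the E-box CACGTG, matched at the second Gapdh2 summit, and 15.5% of IDR windows held it. TAAATAA matched at the first Pgk summit, and 20.4% of IDR windows held it. TACATGG, a 7-mer in 7.72% of IDR windows and 2.54% of the windows of other pooled entries, was in none of the 6. TCAAGGTCA, a binding element of ERR, was also in none, against 0.0905%, and TATCGATA, GGTCACAC, GAGAGAG and CACGTG were in none, against 3.26%, 2.6%, 6.85% and 2.38%. The Eno window held none of the 9 motifs. A match is a stretch of letters and not a shown site, and its absence says only that these letters are not in these windows.

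Genes around glycolysis were counted in 6 companion lists of 66 genes, chosen with earlier results of these data known. The first list held 13 genes, which were paralogs of the enzymes described here together with hexokinases, whose step is not among those enzymes. Of these 13, 2 had a pooled entry within 1 kb of a start, beside 52.5% of all protein-coding genes. An IDR peak was found at 1 of the 13, or 7.69%, beside 17.3%. That gene was Hex-A, a hexokinase and so the enzyme that feeds glucose into Pgi. Its peak had a signal of 671.2 and rank 312, 240 bp upstream of the start, and replicate ranks of 288, 389 and 268. The other gene with a pooled entry was CG9961, at rank 19360, so no paralog in this list had an IDR peak. The list that feeds and reverses glycolysis, sugar entry, storage and gluconeogenesis, had the most, with IDR peaks at 9 of 14 genes, or 64.3%, beside 17.3% of all protein-coding genes and 30.3% of those with at least 2 starts. Its strongest were Pepck2, a phosphoenolpyruvate carboxykinase (signal 2221, rank 29, 480 bp upstream), Glyp, the glycogen phosphorylase (701.2, rank 291, 207 bp upstream), and PCB, the pyruvate carboxylase (304.0, rank 1401, 325 bp upstream). The other IDR peaks of this list were weaker, with signals from 191.8 to 268.7, nearer to the IDR limit. Their summits lay up to 894 bp from a start, and the weakest ranked 8512, 4405 and 1504 in replicates 1, 2 and 3. The Pepck2 peak was stronger than that of any glycolytic enzyme, and it ranked 40, 26 and 23 in the replicates.

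Downstream of pyruvate, 3 of 9 genes for the fates of pyruvate and NADH had an IDR peak, or 33.3%, near the 30.3% of protein-coding genes with at least 2 starts. Ldh, the lactate dehydrogenase that renews NAD, had a signal of 653.5 and rank 338, 218 bp upstream of its start, at ranks 286, 357 and 394 in the replicates. Mpc1, a subunit of the mitochondrial pyruvate carrier, had a signal of 229.9 and Pdp, the pyruvate dehydrogenase phosphatase, one of 209.9, both nearer to the IDR limit. Of 7 genes of the pentose phosphate pathway 1 had a peak (14.3%, beside 17.3% of all protein-coding genes), the transketolase gene CG8036, with a signal of 822.1, rank 193, 257 bp upstream, and replicate ranks of 143, 256 and 256. Of 15 genes of the TCA cycle 5 had one, again 33.3%, the strongest at Idh3g, an isocitrate dehydrogenase subunit (646.4, rank 348), Fum1, a fumarase (372.9, rank 956), and mAcon1, an aconitase (258.8, rank 1896). Ldh, CG8036 and Idh3g thus stood well above the rest of their lists, and in each list the genes without an IDR peak were the majority.

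**Figure D4:**
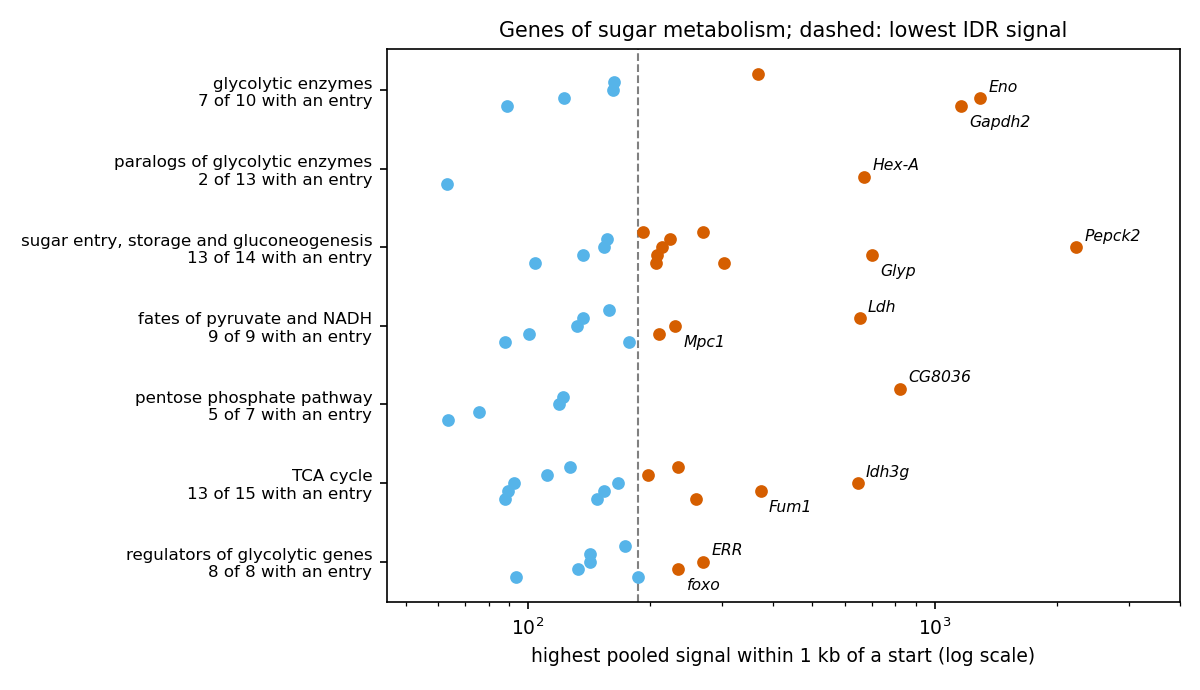
Highest pooled signal within 1 kb of a start (horizontal log axis, on the caller's scale) of each gene with an entry, for the glycolytic enzymes and 6 companion lists; IDR peaks are orange and other entries blue, the dashed line is the lowest IDR signal, 186.7, points are shifted vertically to separate them, and the 2 strongest genes of a list are named where they are IDR peaks. Eno at 1291 and Gapdh2 at 1160 are passed only by Pepck2 at 2221, and 9 of the 14 genes of sugar entry, storage and gluconeogenesis lie beyond the line.

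Regulators of glycolytic genes in Drosophila all had a pooled entry within 1 kb of a start, 8 of 8, beside 52.5% of all protein-coding genes. An IDR peak was found at 2 of the 8, or 25%, between the 17.3% of all protein-coding genes and the 30.3% of those with at least 2 starts. ERR had a signal of 269.0 and rank 1780, 242 bp upstream, and ranked 1051, 2417 and 3522 in replicates 1, 2 and 3. That of foxo, which acts in insulin signalling, had a signal of 233.9 and rank 2260. Mondo, a sugar sensor, and sima, the HIF alpha subunit, had entries of 141.9 and 141.7 at ranks 5327 and 5335, below the IDR limit. In the plot of the companion lists the regulators lie close to the line, without a peak of the strength seen at Eno or Gapdh2. Over the 6 lists, 21 of the 66 genes had an IDR peak, 9 of them in the list of sugar entry, storage and gluconeogenesis. The share of all protein-coding genes was 17.3%, and that of genes with at least 2 starts 30.3%. The strongest summit was upstream at 18 of the 21, or 85.7%, beside 77.3% over all protein-coding genes with one. Its median position was -254 bp, beside -124 bp over all of these.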

How the data were processed

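The authors deposited dm6 peak lists per the labels: 30000 candidate entries for each of 3 replicates, 30000 for the pooled replicates, and 3314 pooled entries that passed IDR. Each entry has a signal and a q-value as −log10, both deposited by the authors as their caller gave them. The sources used here do not give the aligner, the caller, the signal's scale or the read depth, and the control shared by the replicates is not analysed here. No entry had the same interval and summit in any 2 replicates.

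Summits were compared with transcript starts of Ensembl release 115 for the same assembly, with transposable element records left out, and counted for every gene with a start within 1 kb. Gene coordinates were the same in RefSeq for 10 of 10 enzyme genes. A replicate's entry was matched to a pooled summit by the strongest entry within 250 bp. The positional counts were tested on simulated data. Python 3.11.15, numpy 2.4.6 and matplotlib 3.10.9 were used. With 1 group, nothing was tested for significance: counts stand beside the share over all protein-coding genes. The 3 replicates are of 1 line, and mean ± SD covers the spread between them.

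The enzymes, the companion lists and the motifs were chosen with earlier results of these data known. Of 67 companion symbols 63 matched directly and 4 by a RefSeq synonym, and 2 of them were the same gene. The text names all 10 enzymes, genes with a start within 1 kb of a counted summit, up to 3 companion genes a list with the strongest IDR peak, and ERR, sima and Mondo. CG9961, CG16952 and 14-3-3zeta lie outside this rule and were named after their values were seen. Alternatives were other windows, gene 5′ ends only, subsets of the IDR list, replicates left out and other sequence windows.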

Additional observations from a re-analysis of the deposited data

How the results depend on the processing

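The count of 3 enzyme genes with an IDR summit within 1 kb of a start stayed at 3 in 10 of 11 alternatives and was 2 with the gene 5′ end alone as the start, which left out Eno. The share of protein-coding genes behind the enzyme count moved from 17.3% to 9.26% with the IDR peaks of above-median signal and to 10.9% with the peaks found in all 3 replicates. The 21 companion genes with an IDR peak became 11 with a 250 bp window, 8 with those of above-median signal, 12 with the peaks found in all 3 replicates, and 13 without replicate 1 or without replicate 2 and 16 without replicate 3. These companion alternatives were chosen after seeing the data. With the first 1000 bp after any start left out, 1 enzyme gene (Pgk) in place of 3 held an IDR summit in its body. Counting each motif once per window, the 6 summits had 5 motif matches with 200 bp to either side, against 3 with 100 bp. The mean rank of Ald1 went from 7592 to 4686 without replicate 1, and that of Pglym78 from 5807 to 3815 without replicate 2. Matching within 100 bp left the mean ranks of Ald1, Gapdh2, Pgk, Pglym78 and Eno as they were. It left the strongest PyK entry with a match in 1 replicate. The PyK entry of rank 11301, 14 bp upstream of the 5′ start, was matched in all 3, at ranks 6398, 23662 and 5505. Leaving a replicate out only filtered the deposited IDR list, whose calls still rest on all 3. Depth is unknown, so a gene with no entry is one whose signal did not reach the lists, not one shown to lack CG10431. No paired analysis was possible because there is 1 group.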
